A study of Mus musculus with 21 samples.

Results

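Bicuculline was compared with water after 1 h in mouse cortical cultures kept in MM401, an inhibitor of the MLL1 enzyme complex. The 6 libraries of this comparison, 3 with bicuculline and 3 with water, were chosen by their labels from the 21 libraries of the series. They form the only pair of 1 h groups here in which bicuculline has a water control of the same duration. The cultures came from CD1 mice and were used at day 17 in vitro. Both groups received 25 µM MM401 for 30 min, followed by 40 µM bicuculline-methiodide or sterile water for 1 h, and 2 mM bromouridine was in the medium for the last 30 min. Neither group was free of MM401, so the comparison shows a response within MM401-treated cultures and holds no estimate of what MM401 did. Each group had 3 biological replicates of mixed sex. The labels do not say which animals or culture preparations a replicate came from, so the p-values below measure the spread between these libraries. The other libraries used were DMSO with bicuculline at 1 h and water at 4 h, and MM401 with bicuculline and water at 4 h, and DMSO with bicuculline at 4 h entered the common fit only. The measurement was BrU-seq: cells build bromouridine into the RNA they are transcribing, and only RNA carrying it is purified for sequencing, so that the counts follow recent synthesis rather than the stock of messenger RNA.

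Bicuculline blocks GABA-A receptors and thereby removes synaptic inhibition, which raises firing across a cultured network. Calcium entering active neurons drives kinases that phosphorylate transcription factors already bound at promoters and enhancers, such as CREB at the cAMP response element (CRE) and SRF at the CArG box. The first genes to respond, the immediate early genes, encode further transcription factors (the Fos, Jun, Egr and Nr4a families and Npas4) and proteins that act at synapses, such as Arc. MLL1, encoded by Kmt2a, is a methyltransferase of lysine 4 of histone H3. It acts in a complex with WDR5, RBBP5 and ASH2L, and MM401 is a peptidomimetic that blocks its contact with WDR5.

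The promoters of 6 genes at the ends of the response are shown because they differ in the elements these factors bind, and they were chosen after their values and motifs were seen. Fosb, Npas4, Nr4a3, Btg2 and Nts were among the genes with the largest rises and Emx1 had the largest of the 12 falls named for their size. Each sequence is the 250 bases before the RefSeq start site (build GRCm38.p6), written 5′ to 3′ on the gene's own strand. The windows lie at chr7:19310046-19310295 (minus strand) for Fosb, chr19:4989972-4990221 (minus) for Npas4 and chr4:48045055-48045304 (plus) for Nr4a3. They lie at chr1:134079156-134079405 (minus) for Btg2, chr10:102490419-102490668 (minus) for Nts and chr6:85187681-85187930 (plus) for Emx1. Capitals mark every match, on either strand, to the CRE (TGACGTCA), its core TGACG, the AP-1 site (TGANTCA) or the CArG box.
Fosb: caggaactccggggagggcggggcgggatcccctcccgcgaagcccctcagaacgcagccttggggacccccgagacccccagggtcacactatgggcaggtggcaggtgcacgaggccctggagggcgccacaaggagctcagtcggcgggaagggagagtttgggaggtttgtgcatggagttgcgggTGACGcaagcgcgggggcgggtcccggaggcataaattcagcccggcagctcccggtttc
Npas4: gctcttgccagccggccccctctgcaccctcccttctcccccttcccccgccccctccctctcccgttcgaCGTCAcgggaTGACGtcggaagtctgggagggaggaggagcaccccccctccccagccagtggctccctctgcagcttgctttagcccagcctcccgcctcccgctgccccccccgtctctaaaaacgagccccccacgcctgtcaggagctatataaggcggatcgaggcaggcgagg
Nr4a3: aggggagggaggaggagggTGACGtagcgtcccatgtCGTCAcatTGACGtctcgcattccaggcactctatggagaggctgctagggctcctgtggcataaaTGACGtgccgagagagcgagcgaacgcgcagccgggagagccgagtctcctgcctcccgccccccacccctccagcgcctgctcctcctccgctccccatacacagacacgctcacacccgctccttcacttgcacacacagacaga
Btg2: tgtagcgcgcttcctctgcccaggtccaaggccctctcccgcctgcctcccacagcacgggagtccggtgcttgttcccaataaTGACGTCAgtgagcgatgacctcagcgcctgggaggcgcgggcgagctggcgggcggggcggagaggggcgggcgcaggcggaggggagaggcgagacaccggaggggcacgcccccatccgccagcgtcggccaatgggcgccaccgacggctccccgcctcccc
Nts: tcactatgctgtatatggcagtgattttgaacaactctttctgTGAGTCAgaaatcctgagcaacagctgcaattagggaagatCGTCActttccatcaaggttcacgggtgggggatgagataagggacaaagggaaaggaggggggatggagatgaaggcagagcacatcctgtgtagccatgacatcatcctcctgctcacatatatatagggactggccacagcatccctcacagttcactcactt
Emx1: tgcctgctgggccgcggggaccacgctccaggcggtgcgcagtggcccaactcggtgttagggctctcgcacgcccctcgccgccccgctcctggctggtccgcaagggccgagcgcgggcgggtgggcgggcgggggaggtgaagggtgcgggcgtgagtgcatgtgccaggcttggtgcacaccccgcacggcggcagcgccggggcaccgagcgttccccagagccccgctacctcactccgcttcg
The Nr4a3 window held 4 matches to the CRE core and the Npas4 window 2. Btg2 held a whole CRE, which contains the core once on each strand, with its first base 166 bases before the start. Nts held 1 AP-1 site, 207 bases before the start, and 1 CRE core, whereas the Emx1 window held no match to any of the 4 motifs. Of the genes tested, 13083 had such a window in the reference table. Some genes had more than 1 start site, and a gene was counted for a motif if any of its windows held it. The CRE core was in 27.8% of these 13083 genes, in 42.9% of the 294 with a window that rose at least 2-fold, and in 23.3% of the 103 that fell at least 2-fold. A whole CRE was in 2.81% of all genes with a window, 6.12% of the at least 2-fold risers and 0.971% of the at least 2-fold fallers. AP-1 sites were in 5.99%, 9.52% and 3.88% of the same groups, and CArG boxes in 1.36%, 4.08% and 0.971%. Among the 57 with a window that rose at least 4-fold, the CRE core was in 54.4%, the whole CRE in 14.0%, AP-1 sites in 14.0% and CArG boxes in 1.75%. These are counts of letters in a short window and were not tested.

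The 6 libraries held between 49886348 and 67347805 counts in genes and detected between 18864 and 19277 genes. The first principal component of their log2 CPM carried 57.6% of the variance and placed all 3 bicuculline libraries on one side and all 3 water libraries on the other. Defining markers of neurons and astrocytes were present in every library, as were those of the oligodendrocyte lineage. The summed CPM of the 10 neuronal markers was 5768 to 6803 with bicuculline and 4901 to 5195 with water, and that of the 10 astrocyte markers 1640 to 1710 and 1111 to 1383. For the oligodendrocyte lineage the sums were 205 to 211 and 173 to 181, and for microglia 65.0 to 71.8 and 56.2 to 71.4, with Tmem119 too low to test. Endothelial and mural markers summed to 12.3 to 13.2 and 9.38 to 12.3, and Cldn5, Cdh5 and Vtn were too low to test. In bulk libraries more cells of a type and more RNA per cell cannot be told apart, and the part of these differences in the results below was not tested. Among the markers, 4 neuronal genes rose and 1 fell, 6 astrocyte genes rose and none fell (1 rose with plain library totals), 2 oligodendrocyte genes and 1 endothelial or mural gene rose, and no microglial gene passed the test, where 18.1% of all genes rose and 21.8% fell. The vesicle gene Snap25 rose by 0.99 ± 0.09 (log2, ± SE), the neurofilament gene Nefl by 1.27 ± 0.20 and the astrocyte factor Sox9 by 0.84 ± 0.15, while the vesicular glutamate transporter Slc17a7 changed by -0.50 ± 0.10.

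Of 16959 genes tested, 6769 (39.9%) differed between bicuculline and water at an adjusted p below 0.05 (edgeR's quasi-likelihood test, Benjamini-Hochberg adjustment over all genes). They were divided into 3070 that rose (18.1%) and 3699 that fell (21.8%). Most changes were small: the log2 change was under 0.5 in size for 60.8% of the risers and 70.3% of the fallers. At least 2-fold rises numbered 399 (2.35%) and at least 2-fold falls 138 (0.814%). In 3958 genes (23.3%) all bicuculline libraries lay above all water libraries, and in 4716 (27.8%) all lay below. Scaling by plain library totals moved the median of all genes by -0.21 (log2), and then 1276 genes rose and 6541 fell, 16.3% of calls upward against 45.4% with TMM scaling and 51.1% with DESeq2. Under all 5 scalings tried, 368 of the 399 at least 2-fold rises and 120 of the 138 at least 2-fold falls were called in the same direction, against 1247 of all 3070 rises and 3114 of all 3699 falls.

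**Figure D1:**
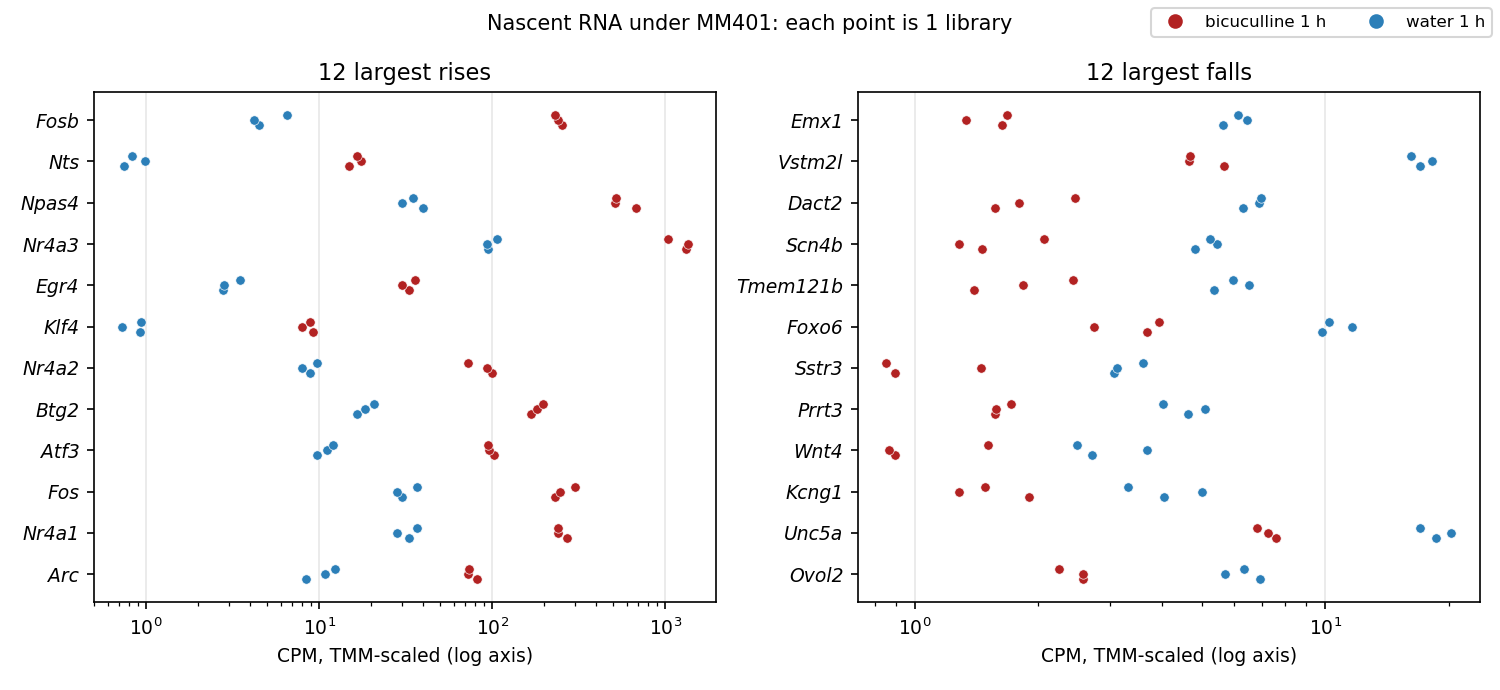
TMM-scaled CPM (log axis) of the 12 genes with the largest rises and the 12 with the largest falls named by rule, 1 point per library, 3 bicuculline (red) and 3 water (blue). In every gene shown the 3 bicuculline libraries lie apart from the 3 water libraries, from Fosb at 231 to 252 against 4.21 to 6.55 CPM down to Emx1 at 1.33 to 1.68 against 5.63 to 6.44 CPM.

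Genes of the AP-1 factors, the Fos, Jun, Atf3 and Maf proteins that bind DNA in pairs, rose in 11 of 13 cases and fell in none, against 18.1% and 21.8% of all genes tested. Their median log2 change was 1.96, against -0.0018 over all genes. Fosb had the largest rise of the 16959 genes, with CPM of 252, 242 and 231 in the 3 bicuculline libraries and 4.496, 4.21 and 6.55 in the 3 water libraries. That is a log2 change of 5.57 ± 0.16, or 47.5-fold (adjusted p = 4.81e-14), with a wide gap between the groups. Fos itself stood at 232, 246 and 300.3 CPM with bicuculline and 30.2, 28.2 and 36.6 with water, a change of 3.04 ± 0.18 (adjusted p = 2.05e-09). Atf3, a stress-responsive member that often represses, went from 9.67, 11.04 and 11.99 CPM in water to 103, 95.998 and 95.2 (3.17 ± 0.10, adjusted p = 4.56e-15). Junb was at 71.4, 65.6 and 78.97 CPM against 10.3, 10.7 and 12.1 (2.70 ± 0.12, adjusted p = 5.20e-13). No library of one group reached the other group in any of these 4 genes. Batf3 (0.29 ± 0.30) and Mafg (0.11 ± 0.10, turning to -0.10 with plain library totals) did not pass the test.

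All 3 Nr4a genes, which encode orphan nuclear receptors, rose, with a median of 3.32. Nr4a3 had CPM of 1317, 1346.5 and 1034 against 94.8, 93.9 and 107, a log2 change of 3.64 ± 0.10 (adjusted p = 9.32e-17). Nr4a2 stood at 99.6, 93.3 and 72.6 against 8.91, 7.997 and 9.71 (3.32 ± 0.15, adjusted p = 1.22e-11), and Nr4a1 at 271, 242 and 241 against 32.96, 28.1 and 36.6 (2.95 ± 0.10, adjusted p = 3.72e-15). The lowest bicuculline library was several times the highest water library in each of the 3 genes. The Egr zinc-finger factors rose unequally. Egr4 changed by 3.45 ± 0.18, from 2.77, 2.804 and 3.49 CPM to 33.1, 30.03 and 35.8, and Egr2 by 2.01 ± 0.14. Egr1 was already abundant in water at 63.2, 62.1 and 67.5 CPM and reached 200.2, 193 and 215 (1.66 ± 0.10, adjusted p = 7.90e-11), and Egr3 rose least (0.96 ± 0.10). Of their corepressors, Nab1 rose and Nab2 fell by 0.30, from 3.703, 3.95 and 3.89 CPM to 3.17, 2.98 and 3.22. Nab2 overlaps Stat6 on the opposite strand, so its small change is uncertain, and its call was lost in 6 of 16 alternative analyses.

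Among 24 other transcription factors and regulators known to follow activity, 18 rose and 1 fell (median 0.83), where 18.1% of all genes rose and 21.8% fell. Npas4, a factor that responds to calcium and promotes inhibitory synapse formation, had CPM of 674, 511 and 518 with bicuculline and 39.7, 29.96 and 35.1 with water. Its log2 change was 4.02 ± 0.18 (adjusted p = 4.11e-11), and its first bicuculline library was the highest. Klf4, a Krüppel-like factor, rose from 0.922, 0.727 and 0.934 CPM to 9.19, 7.93 and 8.83 (3.33 ± 0.14, adjusted p = 3.73e-14), and against water at 4 h its change was 3.96. Btg2, an antiproliferative factor, was at 167, 181 and 196 CPM against 16.6, 18.4 and 20.7 (3.29 ± 0.15, adjusted p = 5.72e-11), and Ier2 at 11.5, 11.9 and 15.4 against 3.02, 2.57 and 2.86 (2.20 ± 0.20). The one member that fell was Klf10, with 11.8, 11.4 and 14.4 CPM against 25.4, 26.2 and 22.3 (-0.97 ± 0.12, adjusted p = 1.23e-06). Cebpb did not pass the test (0.50 ± 0.22, adjusted p = 0.0733).

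**Figure D2:**
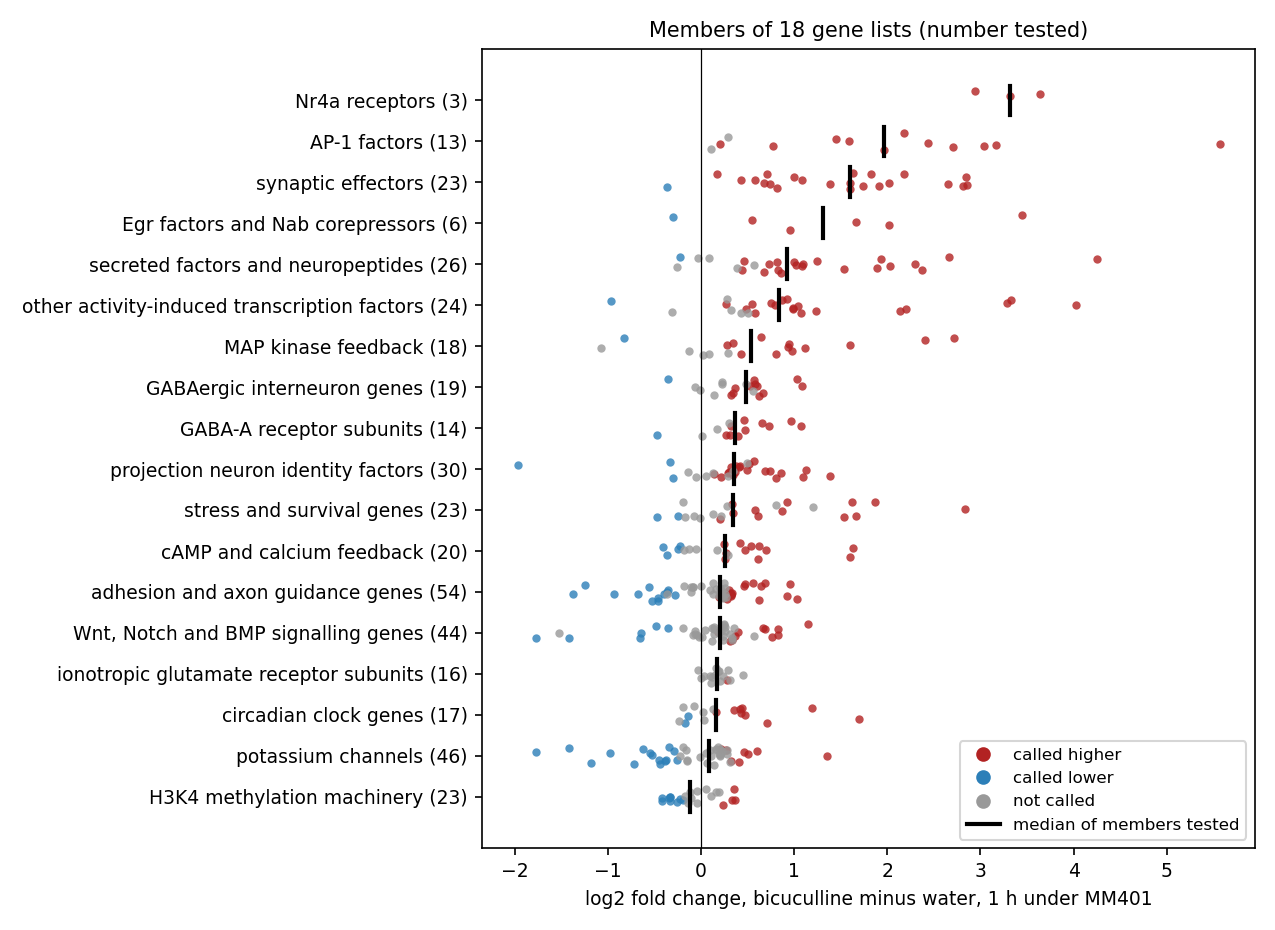
Log2 fold change of every tested member of 18 gene lists, with the number tested in brackets; red members were called higher with bicuculline, blue lower and grey not called, and the black bar is the median. The Nr4a, AP-1, synaptic effector and Egr lists have medians of 1.31 to 3.32, while the H3K4 machinery has a median of -0.12 and members within 0.42 of 0 on either side.

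Genes whose products act at synapses moved almost wholly one way: 22 of 23 tested members rose and 1 fell (18.1% and 21.8% of all genes), with a median of 1.60, and Nptxr is listed at 0 in every library. Arc, which drives internalisation of AMPA receptors, stood at 81.3, 72.8 and 73.7 CPM with bicuculline and 8.39, 10.8 and 12.3 with water (2.85 ± 0.16, adjusted p = 5.96e-10). Homer1, a postsynaptic scaffold gene of 101 kb whose short form uncouples metabotropic glutamate receptors, rose from 439, 407 and 464 CPM to 2967, 3060.1 and 2202 (2.65 ± 0.14, adjusted p = 2.07e-12). Counts over the whole gene do not separate its short from its long forms. Ptgs2, encoding the inducible prostaglandin synthase COX-2, was at 115, 125 and 104 against 16.8, 13.2 and 19.2 CPM (2.81 ± 0.18). Ccn1, a matricellular protein gene, was at 189, 173 and 198 against 24.2, 24.6 and 29.2 (2.84 ± 0.14). In all 4 the groups were far apart, and the third bicuculline library was the lowest for Homer1 and the highest for Ccn1. Plk2, a kinase of synaptic scaling, and Nptx2, a pentraxin that clusters AMPA receptors, were singled out after their values were seen. Plk2 rose by 1.64 ± 0.08 and Nptx2 by 1.60 ± 0.10. Its relative Nptx1 went the other way, 5.79, 4.899 and 6.03 against 6.501, 7.08 and 8.02 CPM (-0.37 ± 0.11, adjusted p = 0.00947), a call lost in 4 of 16 alternatives.

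Secreted factors and neuropeptides rose in 20 of 26 cases and fell in 1 (median 0.93), against 18.1% and 21.8% of all genes. Nts, the gene of neurotensin, was scarce in water at 0.744, 0.979 and 0.827 CPM and reached 14.9, 17.5 and 16.5 with bicuculline, a log2 change of 4.26 ± 0.13 (adjusted p = 3.43e-16). Pcsk1, the convertase that cuts neuropeptide precursors, was at 362, 392 and 313 against 58.1, 50.2 and 60.5 CPM (2.66 ± 0.10, adjusted p = 3.87e-14). Penk, the precursor of enkephalins, was at 77.3, 88.5 and 96.2 against 15.8, 15.1 and 19.8 (2.37 ± 0.13). Crh, the corticotropin-releasing hormone gene, rose on low counts, from 0.647, 0.504 and 0.475 CPM to 2.77, 2.499 and 2.71 (2.29 ± 0.39, adjusted p = 1.33e-04). Bdnf, the neurotrophin of excitatory neurons, was singled out after its values were seen: it stood at 1026, 1116 and 892 CPM against 269, 228 and 301 (1.93 ± 0.10, adjusted p = 2.07e-12). Cck fell slightly (-0.23 ± 0.07), with 16.7, 17.996 and 16.8 CPM against 19.4, 20.8 and 19.9, and lost its call in 4 of 16 alternatives.

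Feedback genes of signalling rose in part. Of 18 genes that restrain MAP kinases, 12 rose and 1 fell (median 0.54), while 18.1% of all genes rose and 21.8% fell, and over the alternatives 1 to 4 fell. The dual-specificity phosphatase genes Dusp1 (2.72 ± 0.12) and Dusp14 (2.40 ± 0.08) led, followed by the EGF receptor inhibitor Errfi1 (1.60 ± 0.08) and the ERK phosphatase Dusp6 (1.12 ± 0.12). Errfi1 overlaps an antisense transcript. Dusp1 was at 108, 99.9 and 112 CPM with bicuculline and 16.6, 16.02 and 16.1 with water, without overlap. The exception was Dusp7, another ERK phosphatase, at 6.46, 6.48 and 9.28 against 12.3, 14.1 and 13.1 CPM (-0.82 ± 0.15, adjusted p = 1.47e-04). Of 20 genes of cAMP and calcium feedback, 11 rose and 4 fell (median 0.26, or 0.05 with plain library totals), the falls at about the share of all genes. Over the alternatives 7 to 13 rose and 2 to 7 fell. The 3 salt-inducible kinase genes, whose products hold the CREB coactivators in the cytoplasm, all rose: Sik2 by 1.63 ± 0.12, Sik1 by 1.60 ± 0.08 and Sik3 by 0.70 ± 0.08. Sik2 overlaps Ppp2r1b on the opposite strand. The phosphodiesterase gene Pde7b rose by 0.62 ± 0.08. The 4 that fell were Camkk1 (-0.41 ± 0.10), the CREB coactivator gene Crtc1 (-0.37 ± 0.07), Camk2b (-0.25 ± 0.07, lost in 1 of 16 alternatives) and Camk2a (-0.23 ± 0.09, lost in 9 of 16 alternatives).

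Stress and survival genes rose in 12 of 23 cases and fell in 2 (median 0.34), and 18.1% of all genes rose and 21.8% fell. Over the alternatives 0 to 4 fell. Gadd45g, a growth arrest and DNA damage gene, was at 37.7, 36.8 and 38.8 CPM with bicuculline and 5.27, 5.297 and 5.36 with water (2.83 ± 0.11, adjusted p = 8.85e-15), and Gadd45b rose by 1.67 ± 0.11. The heat shock genes Hspa1a (1.87 ± 0.36) and Hspa1b (1.62 ± 0.33) rose at levels of 1.05 CPM or less, and because the pair is nearly identical in sequence their separate counts are uncertain. Trib3 (-0.48 ± 0.16) and Bcl2l1 (-0.25 ± 0.08), which overlaps Cox4i2, fell, each losing its call in 4 of 16 alternatives. Of 17 circadian clock genes, 9 rose and 2 fell (median 0.16, or -0.05 with plain library totals), and over the alternatives 5 to 11 rose and 0 to 5 fell. The light- and CREB-responsive clock gene Per1 was at 103, 96.9 and 84.2 CPM against 26.7, 29.3 and 31.7 (1.70 ± 0.09, adjusted p = 5.01e-12). Ciart (1.19 ± 0.14), Cry2 (0.71 ± 0.06) and Bhlhe41 (0.47 ± 0.10, lost in 1 of 16 alternatives), which encode repressors of the clock loop, rose less, and the first 2 of these overlap transcripts of the opposite strand. Clock (-0.14 ± 0.05) and Tef (-0.17 ± 0.06) fell, but both calls were lost in at least 9 of 16 alternatives.

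The largest falls named by rule were in genes of low to moderate level. Emx1, a homeobox gene of the dorsal forebrain and its excitatory neurons, was at 1.64, 1.33 and 1.68 CPM with bicuculline and 5.63, 6.44 and 6.14 with water, a log2 change of -1.97 ± 0.12 (adjusted p = 2.78e-11). Vstm2l, which encodes an immunoglobulin-domain protein, went from 17.03, 18.2 and 16.2 CPM to 5.68, 4.65 and 4.698 (-1.78 ± 0.10, adjusted p = 5.01e-12). Dact2, an antagonist of Wnt and TGF-beta signalling, was at 1.57, 1.7996 and 2.45 against 6.32, 6.88 and 6.97 (-1.78 ± 0.15, adjusted p = 2.78e-09). The groups did not overlap in these 3 genes. Scn4b, the sodium channel subunit beta 4, fell from 4.82, 5.45 and 5.25 to 1.46, 1.28 and 2.06 CPM (-1.68 ± 0.16), and Sstr3, the somatostatin receptor of neuronal cilia, from 3.06, 3.12 and 3.598 to 0.895, 1.45 and 0.853 (-1.60 ± 0.21). The remaining genes named by rule were Tmem121b (-1.64 ± 0.20), the forkhead factor gene Foxo6 (-1.61 ± 0.16), Prrt3 (-1.49 ± 0.15), the ligand gene Wnt4 (-1.42 ± 0.20, or -0.69 against water at 4 h) and the potassium channel subunit gene Kcng1 (-1.42 ± 0.19). Unc5a, a receptor for netrin (-1.37 ± 0.09), and the zinc-finger factor gene Ovol2 (-1.36 ± 0.12) complete them. Unc5a overlaps Hk3 on the opposite strand.

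Potassium channel genes were the list with the most falls among ion channels and receptors: 15 of 46 fell and 8 rose, against 21.8% and 18.1% of all genes. Over the alternatives 13 to 21 fell and 3 to 13 rose. The median was 0.08 and turned to -0.13 with plain library totals and -0.11 after a correction for gene length. The inward rectifier gene Kcnj2 rose from 14.5, 15.03 and 17.6 CPM to 36.9, 41.9 and 42.04 (1.36 ± 0.09, adjusted p = 1.24e-10), and Kcnj3 (0.61 ± 0.14), Kcnf1 (0.50 ± 0.10) and Kcna4 (0.46 ± 0.11) rose less, the first 2 of these losing their call in 1 of 16 alternatives each. Kcnc4, of the Kv3 family, fell from 9.09, 11.3 and 9.02 to 4.65, 4.07 and 4.25 CPM (-1.19 ± 0.16, adjusted p = 3.70e-06). Kcnh4 fell by 0.98 on the log2 scale. Kcns1, a silent subunit that modifies Kv2 channels, was at 0.437 CPM or less in all libraries and changed by -1.78 ± 0.39. Among 54 adhesion and axon guidance genes 20 rose and 12 fell, but only 9 rose with plain library totals and 11 after the length correction. Epha4 (1.03 ± 0.10), Efnb2 (0.96 ± 0.07), Sema3c (0.93 ± 0.08) and Lrrtm1 (0.69 ± 0.09), which lies within Ctnna2 on the opposite strand, were among the risers. Besides Unc5a, the Nogo receptor gene Rtn4r fell from 29.6, 35.5 and 31.96 CPM to 13.8, 13.9 and 13.2 (-1.25 ± 0.07, adjusted p = 1.14e-11), Sema7a by 0.94 and Ephb6 by 0.68. Of 44 genes of Wnt, Notch and BMP signalling, 11 rose and 6 fell (median 0.20, or -0.01 with plain library totals), against 18.1% and 21.8% of all genes, and over the alternatives 6 to 15 rose. The 2 related Dact genes moved in opposite directions, Dact1 at 10.8, 12.4 and 13.9 against 5.24, 5.43 and 6.06 CPM (1.15 ± 0.12) and Dact2 downward as above. Fzd3 (0.82 ± 0.07), Smad7 (0.82 ± 0.09) and Lef1 (0.77 ± 0.14) rose, and Jag2 (-0.66 ± 0.15) and Smad9 (-0.64 ± 0.13) fell.

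Factors that define cortical projection neurons rose in 20 of 30 cases and fell in 3, against 18.1% and 21.8% of all genes. Over the alternatives 10 to 23 rose, with 11 rising when scaled by plain library totals. The median was 0.35, or 0.14 with plain library totals and 0.24 after the length correction. Tbr1, a factor of deep-layer neurons, stood at 28.5, 32.2 and 22.5 CPM with bicuculline against 10.03, 11.6 and 10.2 (1.39 ± 0.11, adjusted p = 2.24e-09). Mn1 (1.12 ± 0.07), Fezf2 (1.09 ± 0.15) and Bhlhe22 (0.86 ± 0.14) also rose. Apart from Emx1 the falls were shallow, in Lhx2 (-0.30 ± 0.06, lost in 1 of 16 alternatives) and in Neurod1 (-0.33 ± 0.13), whose groups overlapped and whose call was lost in 9 of 16 alternatives. Genes of GABAergic interneurons rose in 11 of 19 cases and fell in 1 (median 0.48, or 0.27 with plain library totals), with 7 to 12 rising over the alternatives, 18.1% of all genes rising and Dlx1 listed at 0 in every library. Vip, an interneuron neuropeptide, was at 19.8, 22.9 and 21.3 CPM against 10.6, 8.74 and 10.8 (1.09 ± 0.14), and Gad1, which makes GABA, at 309, 323 and 270.5 against 145, 147 and 149.9 (1.03 ± 0.08, adjusted p = 7.32e-10). Gad1 overlaps Gad1os on the opposite strand. Dlx5 rose by 0.66 ± 0.12 and Dlx6, which overlaps antisense transcripts, by 0.62 ± 0.12. The Kv3 channel gene Kcnc1 fell by 0.36, a call lost in 1 of 16 alternatives. Summed neuronal and astrocyte markers were also higher with bicuculline, as given above.

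Subunit genes of the receptor that bicuculline blocks rose in 10 of 14 cases and fell in 1, against 18.1% and 21.8% of all genes, with Gabra6 too low to test. The number that rose was 6 with plain library totals and 4 against MM401 with water at 4 h. The median was 0.36, or 0.15 with plain library totals and 0.25 after the length correction. Gabrg1 was at 51.2, 53.8 and 44.3 CPM with bicuculline and 25.6, 22.1 and 23.4 with water (1.07 ± 0.08, adjusted p = 1.31e-09). The groups did not overlap. Gabrq (0.65 ± 0.16) and Gabre (0.73 ± 0.23) rose from low levels, and Gabre lost its call in 3 of 16 alternatives. Gabrd, a subunit of receptors outside synapses, fell from 2.28, 2.18 and 2.31 to 1.899, 1.72 and 1.32 CPM (-0.47 ± 0.16, adjusted p = 0.0235), lost in 5 of 16 alternatives. Of 16 ionotropic glutamate receptor genes, 1 rose and none fell, against 18.1% and 21.8% of all genes, and over the alternatives 0 to 6 rose and 0 to 2 fell. Their median was 0.17, or -0.05 with plain library totals and -0.03 after the length correction. The one called was Gria2, the AMPA receptor subunit that limits calcium entry, at 1328, 1463 and 1316 against 1230.2, 1067 and 1087 CPM (0.28 ± 0.09, adjusted p = 0.0176), and its call was lost in 7 of 16 alternatives.

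The H3K4 methylation machinery, which holds the target of MM401, moved little: 9 of 23 genes fell, 4 rose and 10 did not pass the test (median -0.12, or -0.33 with plain library totals). Of all genes 21.8% fell and 18.1% rose, and over the alternatives 8 to 15 of the 23 fell. Kmt2a, the gene of MLL1, was at 239, 229 and 208 CPM with bicuculline and 201, 205 and 197 with water. Its log2 change of 0.16 ± 0.07 did not pass the test (adjusted p = 0.0626). It passed in 5 of 16 alternatives, with a lowest adjusted p of 0.0168, and was -0.051 with plain library totals. Wdr5, whose product MM401 keeps from MLL1, fell from 20.8, 21.8 and 21.99 CPM to 16.3, 17.9 and 16.97 (-0.34 ± 0.07, adjusted p = 2.76e-04). The genes of the other core subunits fell by similar amounts, Rbbp5 by 0.42 and Ash2l by 0.34, as did Men1 (0.34 lower, lost in 2 of 16 alternatives), which encodes menin, the partner of MLL1. Kdm1b, a demethylase of H3K4, fell by 0.42 and overlaps Dek on the opposite strand. The genes that rose were Kmt2e (0.36 ± 0.06), which overlaps Srpk2, Kmt2c (0.34 ± 0.06), Hcfc1 (0.35 ± 0.09, lost in 1 of 16) and Kdm6a (0.24 ± 0.07, lost in 6 of 16 alternatives). None of the 23 changed 2-fold. RNA levels do not measure the activity of the enzyme, so these values do not check whether MM401 acted.

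Calls followed gene length, and rises of any size and of at least 2-fold did so in opposite ways. The share of genes that rose went from 11.4% among genes of 10 to 25 kb to 49.7% at 200 to 500 kb and 42.7% at 500 kb or more. The share that fell went from 31.0% at 10 to 25 kb to 1.06% at 200 to 500 kb. Long genes had higher counts, with a median of 198.9 CPM at 200 to 500 kb against 8.37 CPM at 10 to 25 kb. Their changes were small: the median log2 change was 0.22 at 200 to 500 kb and -0.11 at 10 to 25 kb. At least 2-fold rises made up 4.89% of genes under 5 kb and 0.794% of those at 200 to 500 kb, and no gene of 100 kb or more fell 2-fold. At least 2-fold falls were also most frequent under 5 kb (1.58%). Genes under 5 kb had low counts, with a median of 1.34 CPM and a median SE of 0.23, against an SE of 0.085 at 200 to 500 kb. The at least 2-fold risers had a median length of 12.7 kb, against 47.5 kb for all risers, and 33 of the 399, Homer1 and Sik2 among them, were 100 kb or longer. These shares moved with the scaling. With plain library totals 5.04% of genes rose at 10 to 25 kb, 13.2% at 200 to 500 kb and 10.7% at 500 kb or more, and 46.7%, 11.1% and 1.46% fell. The median change was then -0.32 at 10 to 25 kb and 0.0081 at 200 to 500 kb.

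**Figure D3:**
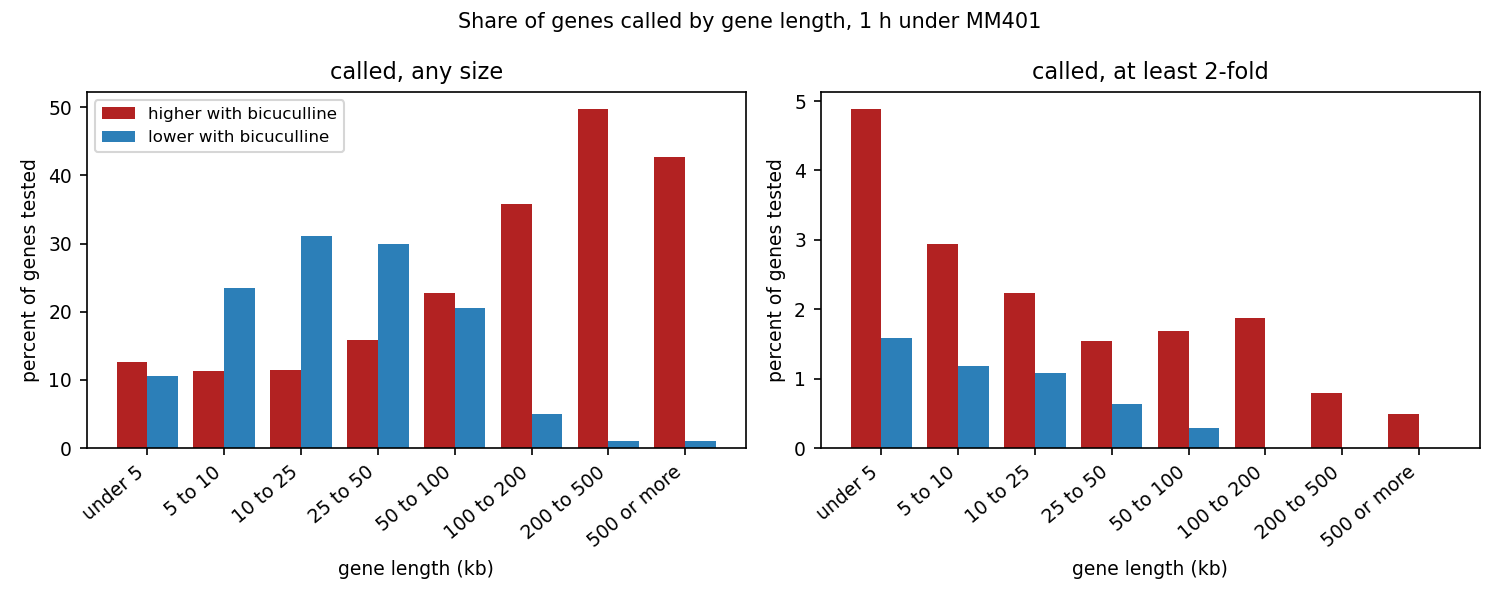
Percent of the genes tested in each of 8 length classes that were called higher (red) or lower (blue) with bicuculline, for calls of any size (left) and calls of at least 2-fold (right, with its own axis). Rises of any size reach 49.7% at 200 to 500 kb, whereas rises of at least 2-fold are most frequent under 5 kb (4.89%).

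The response was set beside the same hour of bicuculline without the inhibitor. In DMSO the 1 h response could be taken only against water at 4 h, and it shares no library with the response under MM401. Of the 6769 genes called under MM401, 6446 (95.2%) had the same sign in DMSO, and across these genes Pearson's r of the log2 changes was 0.892, a description over genes, which are not independent replicates. Pearson's r was 0.811 among the genes that rose and 0.588 among those that fell. It was 0.765 among the 399 that rose at least 2-fold and 0.138 among the 138 that fell at least 2-fold. Of these 138, 125 (90.6%) had the same sign in DMSO and 85 were called there. These genes were chosen by their call under MM401. Over all 16959 genes tested 77.4% had the same sign and r was 0.680. The 12 rises named for their size stood side by side: Fosb 5.57 ± 0.16 under MM401 and 5.77 ± 0.16 in DMSO, Nts 4.26 ± 0.13 and 4.26 ± 0.13, Npas4 4.02 ± 0.18 and 4.43 ± 0.19, and Nr4a3 3.64 ± 0.10 and 3.53 ± 0.10. They went on with Egr4 at 3.45 ± 0.18 and 3.42 ± 0.18, Klf4 3.33 ± 0.14 and 3.51 ± 0.14, Nr4a2 3.32 ± 0.15 and 2.87 ± 0.15, and Btg2 3.29 ± 0.15 and 3.01 ± 0.15. The last were Atf3 at 3.17 ± 0.10 and 3.21 ± 0.10, Fos 3.04 ± 0.18 and 2.66 ± 0.17, Nr4a1 2.95 ± 0.10 and 3.09 ± 0.10, and Arc 2.85 ± 0.16 and 2.78 ± 0.16. The 3 largest falls named in the same way were Emx1 at -1.97 ± 0.12 and -1.82 ± 0.12, Vstm2l -1.78 ± 0.10 and -1.65 ± 0.10, and Dact2 -1.78 ± 0.15 and -1.58 ± 0.14. The difference of the responses was called for 233 genes (1.37%), 79 higher and 154 lower under MM401, and for none of the tested members of the AP-1, Egr, Nr4a, synaptic effector, secreted factor or H3K4 lists, which at 1.37% is near the background share. It was called for 2 genes of the Wnt, Notch and BMP list and for 1 gene each of the MAP kinase, projection neuron, glutamate receptor, stress, astrocyte and oligodendrocyte lists. The 5 largest differences were in Sult2a7, Bdkrb2, Hist1h1d, Cuzd1 and Hist1h1c, with Sult2a7 and Cuzd1 at means of 0.364 CPM or less in every group compared. Bdkrb2, the bradykinin B2 receptor, was at 2.49, 3.57 and 3.91 CPM with bicuculline and 1.65, 2.52 and 1.18 with water under MM401, which overlapped. It had means of 5.61 ± 0.795 with bicuculline at 1 h and 0.637 ± 0.110 with water at 4 h in DMSO (SD, n = 3 each). The count was 98 to 513 when 1 library was left out and 27 with all 21 libraries. With the 2 libraries of MM401 with water at 4 h in place of the 3 at 1 h, which changes duration and number together, edgeR called no gene and DESeq2 called 5, with 1326 genes at an unadjusted p below 0.05, and the 5 differences kept their sign.

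The last comparison set this early response beside the one after 4 h under MM401. The 4 h response used 3 bicuculline libraries and 2 water libraries and shares none with the 1 h response. It differed from the 1 h response in 2187 genes (12.9%). Of the 399 genes with at least 2-fold rises at 1 h, 141 differed, 124 with a lower and 17 with a higher log2 change at 4 h. They were chosen for a large value at 1 h, which favours a smaller one at 4 h. Over all genes tested the difference had the opposite sign to the 1 h change in 1403 and the same sign in 784. The 1403 include changes that reversed, such as that of Egr3 below, so they are not a count of smaller responses. The median of the Egr and Nab list went from 1.31 to 0.09: Egr4 went from 3.45 ± 0.18 at 1 h to 0.62 ± 0.21 at 4 h, Egr1 from 1.66 ± 0.10 to -0.30 ± 0.11 and Egr3 from 0.96 ± 0.10 to -1.12 ± 0.11. Homer1 went from 2.65 ± 0.14 to 0.33 ± 0.15, Fosb from 5.57 ± 0.16 to 3.79 ± 0.19 and Nr4a3 from 3.64 ± 0.10 to 2.01 ± 0.11. Other early genes had close values at both times: Nts 4.26 ± 0.13 and 4.28 ± 0.16, Atf3 3.17 ± 0.10 and 3.13 ± 0.12, Klf4 3.33 ± 0.14 and 3.25 ± 0.18, none of which differed by the test (adjusted p = 0.966, 0.920 and 0.878). Bdnf was larger at 4 h, 2.45 ± 0.12 against 1.93 ± 0.10 (adjusted p of the difference = 0.0219, edgeR). Among the falls, Emx1 was at -0.25 ± 0.13 and Ovol2 at 0.32 ± 0.13 after 4 h, and both differed from 1 h by the test. Scn4b was at -2.21 ± 0.18, which did not differ from its 1 h value by the test (adjusted p = 0.166). The count of 2187 was 886 with all 21 libraries, and 1310 or 1378 when replicate 1 or replicate 2 of MM401 with water at 4 h was left out.

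**Figure D4:**
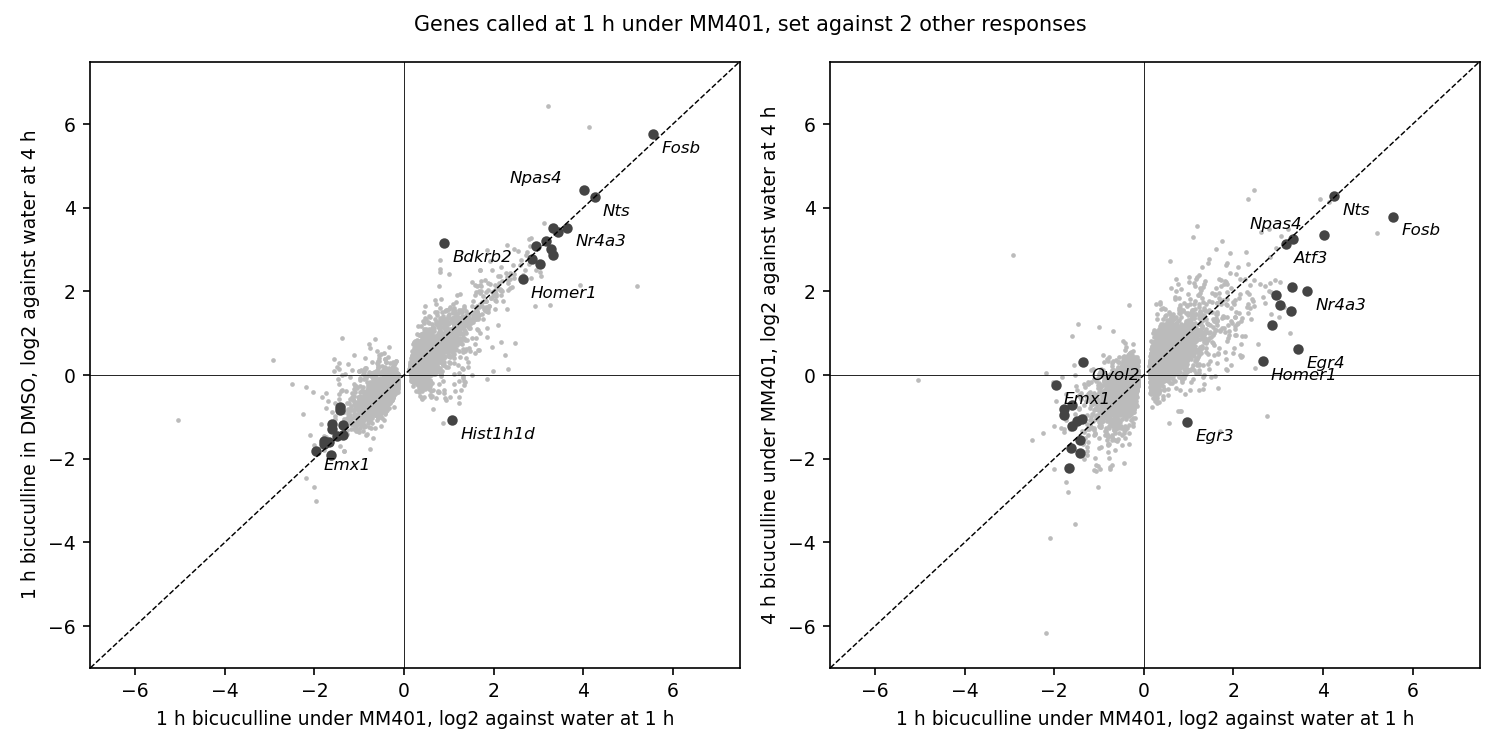
Log2 changes of the 6769 genes called at 1 h under MM401 (grey, 1 point per gene) against the 1 h response in DMSO (left) and the 4 h response under MM401 (right); dark points are genes named in the text and the dashed line marks equal change. Most named genes lie near the line on the left, while on the right Egr4, Homer1 and Nr4a3 lie below it and Nts and Atf3 on it.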

How the data were processed

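BrU-seq read counts per whole gene were taken from the table the authors deposited for 21 libraries in 7 groups of 3; its values are whole-number counts, not normalized. Per the submitters' processing notes, Bowtie2, UMI-tools, featureCounts, DESeq2 and deepTools were used with the mouse build mm10, without versions. Strand use, treatment of multi-mapping reads and the annotation release are not given in the sources used here, so overlapping and near-identical genes are uncertain. Reads were 150 bp paired-end, per the labels. One library, replicate 3 of MM401 with water at 4 h, held 316741 counts (0.503% of the median library) and was left out; the other 20 held 49886348 to 87939384 counts.

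From the deposited counts, genes passing a minimum count of 10 and a total of 15 (edgeR's filterByExpr, 16959 of 24984 genes) were fitted with edgeR 4.0.16 (R 4.3.3): TMM scaling, robust quasi-likelihood fit over all 20 libraries, contrast tests and Benjamini-Hochberg adjustment over all genes tested, with a threshold of 0.05. Sharing the spread over groups gave a common biological coefficient of variation of 8.77%. CPM values were scaled by TMM and not divided by length, so they compare libraries and not genes. The fit was also run on counts simulated from its own estimates with known fold changes in a small part of the genes, which cannot test the choice of scaling. The rule for named genes was the 12 largest rises and 12 largest falls among called genes that had at least 2 mean CPM in the higher group and whose groups did not overlap (leaving out predicted genes without a name, small RNA and mitochondrial genes and ribosomal protein pseudogenes), up to 4 members of each list in each direction, and the 5 largest differences from each other response, plus the targets of the agents and members not called where a sentence is about them. Genes outside that rule are said to have been chosen after their values were seen. The members and lists were chosen with earlier results of these data known.

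Same-numbered bicuculline and water libraries deviated together only weakly, with correlations of 0.11, 0.02 and 0.09 for numbers 1, 2 and 3, so the numbers were not taken to pair them. Replicate pairs differed by more than counting noise (chi-square over degrees of freedom of 5.46 to 25.6), and none was counted as a repeat. Alternatives were DESeq2 1.42.0, RLE size factors, plain library totals, no filter, a minimum count of 50, the 6 libraries alone, all 21 libraries, a replicate block, water at 4 h as reference and leaving out each library. A gene length correction, and both 1 h responses against water at 4 h, were added after seeing the data. Promoter windows came from RefSeq (GRCm38.p6), matched by symbol for 13083 genes. Results on a few listed genes are not reported here.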

Additional observations from a re-analysis of the deposited data

Results flagged for a closer look

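Differences between the 1 h response under MM401 and the 1 h response in DMSO passed the test for 233 genes, and 7 of them are named in the text (log2, MM401 minus DMSO). Sult2a7 (-2.87), Bdkrb2 (-2.25), Cuzd1 (-2.09) and Ntsr1 (-0.81) were lower under MM401. Sult2a7 and Cuzd1 are genes of low count, with means of 0.364 CPM or less in every group compared. The linker histone genes Hist1h1d (2.17) and Hist1h1c (2.02) and the oligodendrocyte factor Olig2 (0.78) were higher. The 2 responses had water controls of different duration, and with water at 4 h for both (2 libraries under MM401), edgeR called no gene. The values then were -0.61 for Sult2a7, -1.27 for Bdkrb2, -1.02 for Cuzd1, 0.94 for Hist1h1d and 0.92 for Hist1h1c.

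Differences between the 4 h and the 1 h response under MM401 passed the test for 2187 genes (log2, 4 h minus 1 h). Among the early transcription factors the differences were Egr4 -2.83, Egr3 -2.08, Egr1 -1.95, Egr2 -1.36, Fosb -1.78, Btg2 -1.75, Ier2 -1.73 and Nr4a3 -1.64. Those of Fos -1.37, Nr4a2 -1.21, Nr4a1 -1.02, Junb -0.97 and the corepressor gene Nab2 -0.49 were also below 0. Effector and signalling genes with a smaller rise at 4 h were Homer1 -2.32, Arc -1.66, Ccn1 -1.37, Dusp14 -1.07, Gadd45g -0.85, Pcsk1 -0.80, Per1 -0.64, Dusp1 -0.60, Errfi1 -0.53, Epha4 -0.55 and Cry2 -0.43. The interneuron genes Vip -0.84 and Gad1 -0.36 also had smaller rises.

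Genes that had fallen at 1 h and differed upward were Emx1 1.72, Ovol2 1.69, Ephb6 1.02, Vstm2l 0.97, Foxo6 0.89, Dact2 0.83, Lhx2 0.83, Rtn4r 0.80, Neurod1 0.77, Nptx1 0.75, Smad9 0.75, Kcnc1 0.71, Kdm1b 0.48 and Cck 0.46. Camk2a -0.39, Camk2b -0.35, Drd2 -1.48 and Ntsr1 -1.07 had fallen at 1 h and were lower still at 4 h. Lef1 1.42, Plagl1 0.56 and Bdnf 0.53 had larger rises at 4 h. Mir212 -1.62, Mest -0.89, Peg10 -0.80, Zdbf2 -0.77, Idi1 -0.65 and Cyp51 -0.50 had smaller ones. The 5 largest differences were in genes of low count, Ascl2 7.87, Gata2 5.78, Trpc5os -3.91, Skor2 3.60 and Acmsd -3.41, and the fitted value of Ascl2 has no fixed size because both water libraries at 4 h were at 0.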

How the results depend on the processing

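With 3 libraries a group, small changes rest on the scaling. Plain library totals gave 1276 rises and 6541 falls (250 and 336 at least 2-fold) and turned the log2 fold change of Mafg to -0.10 and that of Kmt2a to -0.051. With water at 4 h as reference Hist1h1d was at -0.14 and Hist1h1c at -0.22. A minimum count of 50 left 82 at least 2-fold falls. Leaving out 1 library gave 2516 to 3045 rises, 2982 to 3500 falls, 376 to 414 at least 2-fold rises and 118 to 168 at least 2-fold falls. Of 141 named genes called, 114 kept their call in all alternatives run and 139 their sign.

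The count of genes differing from the DMSO response was the least stable. With water at 4 h for both responses edgeR called 0 (1326 at an unadjusted p below 0.05) and DESeq2 5. With each response against its own water it was 27 with all 21 libraries, 124 with plain library totals and 408 with DESeq2, and 98 to 513 when 1 library was left out. The highest came on leaving out replicate 1, and the lowest on leaving out replicate 2, of the DMSO water group. It was 104 without replicate 2 of MM401 with bicuculline, 117 and 111 without replicates 1 and 2 of MM401 with water, and 111 and 138 without replicates 1 and 2 of DMSO with bicuculline. The count differing at 4 h was 886 with all 21 libraries and 1310 to 2495 with 1 library left out. With the replicate number as a block, 3361 genes rose and 3930 fell (405 and 148 at least 2-fold), 343 differed from DMSO and 2348 at 4 h. Every library correlated best with its own number, which is a hint from the data and not the design. With the gene length correction 2618 rose and 3980 fell (378 and 140 at least 2-fold), 329 differed from DMSO and 2246 at 4 h. The filter on low counts left 16959 of 24984 genes to test.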

Other observations

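The groups in this section were singled out after their values were seen. The clustered microRNA genes Mir132 and Mir212, which lie side by side on chromosome 11 and are known CREB targets, both rose. Mir212 had counts of 77, 93 and 112 with bicuculline and 13, 7 and 19 with water (3.01 ± 0.30, adjusted p = 6.26e-08, edgeR). Mir132 had 70, 53 and 94 against 13, 10 and 12 (2.80 ± 0.34, adjusted p = 9.22e-07). The counts cover the precursor's stretch of the nascent transcript and not the mature microRNA. The mature sequences below (RefSeq, GRCm38.p6, plus strand, chr11:75173723-75173744 for miR-132-3p and chr11:75173443-75173464 for miR-212-3p) are shown because they share the seed, bases 2 to 8, in capitals.
mmu-miR-132-3p: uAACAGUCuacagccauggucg
mmu-miR-212-3p: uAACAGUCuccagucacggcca

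Imprinted genes, expressed from one parental copy, rose in 20 of 39 cases and fell in 3 (median 0.46 against -0.0018 over all genes), and 11 rose at least 2-fold. Over all genes tested 18.1% rose, 21.8% fell and 2.35% rose at least 2-fold, and the lists here were chosen for their values. Peg10 stood at 54.2, 56.6 and 55.2 CPM with bicuculline and 9.61, 9.45 and 11.1 with water (2.46 ± 0.09). Zdbf2 (2.37 ± 0.08), Mest (2.18 ± 0.09) and Plagl1 (1.73 ± 0.11, or 2.72 against water at 4 h) also rose, and no library of one group reached the other in these 4 genes.

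Genes of sterol synthesis and its SREBP regulators rose in 13 of 26 cases and fell in 3 (median 0.27). Hmgcs1 was at 362, 362 and 298 CPM against 113, 113 and 117 (1.57 ± 0.09). Cyp51 (1.38 ± 0.09), Idi1 (1.30 ± 0.08) and Msmo1 (1.28 ± 0.08) also rose at least 2-fold. Scap (-0.43 ± 0.06) and Mvk (-0.33 ± 0.11, lost in 3 of 16 alternatives) were among those that fell.

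Receptors for monoamines and for neuropeptides moved both ways, and their counts can be read against the same shares of all genes. Of 26 serotonin, dopamine and noradrenaline receptor genes 9 rose and 7 fell, with Htr2a at 55.3, 61.3 and 41.3 CPM against 23.7, 23.3 and 21.3 (1.21 ± 0.13), Htr1d (-1.28 ± 0.39, lost in 3 of 16 alternatives), Htr6 (-1.24 ± 0.16) and Drd2 (-0.76 ± 0.08). Of 31 neuropeptide receptor genes 11 rose and 8 fell. The somatostatin receptor genes Sstr2 (1.27 ± 0.11) and Sstr3 (-1.60 ± 0.21) moved in opposite directions. Ntsr1, a receptor for neurotensin, fell from 13.2, 14.8 and 11.5 to 6.59, 6.07 and 6.12 CPM (-1.07 ± 0.12) in the libraries in which Nts rose by 4.26 ± 0.13, and Crhr1, a receptor for the product of Crh, fell by 1.11. Their relatives did not fall with them: Ntsr2 rose by 0.66 ± 0.18 and Crhr2 did not pass the test (0.09 ± 0.15).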
